A study of Mus musculus with 81 samples.

Results

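Interferon-stimulated genes other than the Oas family were followed in neutrophils of inbred mouse strains. The set was given as a list of 37 gene symbols, and each gene was read from the probe set that carries its symbol alone in the platform's gene table. Of the 37 genes 35 had such a probe set, 1 each, out of 19752 genes that could be read in this way. Isg15 shares its probe set with another symbol, and Ifi44 was not matched to a probe set, so neither was analysed here. The list was not chosen by measured values, but it was proposed with earlier results of these data known.

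Type I interferons bind the receptor subunits Ifnar1 and Ifnar2, and the kinases Jak1 and Tyk2 then activate transcription factors that include Stat2, which enters the nucleus with Irf9. This complex binds a DNA element named the interferon-stimulated response element and switches on antiviral genes, among them the Ifit proteins, which bind foreign RNA, and Usp18, which damps signalling at the receptor. Neutrophils carry these receptors, and a tonic, low interferon signal keeps part of this programme on without infection.

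CD11b+Ly6G+ cells were sorted from the bone marrow of male mice aged 6 weeks, bred under specific-pathogen-free conditions without treatment, and each array held the RNA of a pool of mice. Titles put the 81 arrays in 40 groups, each an inbred strain: C57BL/6J with 5 arrays, FVB/NJ and SWR/J with 1 each, and 37 strains with 2 each. The wild-derived strains are 5, MSM/Ms, JF1/Ms, PWD/PHJ, WSB/EiJ and CAST/EiJ, and the other 35 are classical laboratory strains. Counted among the 35 is KK.Cg-Ay/J, by its name a congenic line with the Ay allele. For 5 strains (10 arrays) the background label contradicts the title. They go by their title here, as titled DBA2, titled C57BR, titled Balb, titled BTBR and titled BPL. In that order, their background labels read DBA/1LacJ, CBA/CaJ, BTBR T+ tf/J, BPL/1J and BALB/cByJ. All values are log2 intensity, a difference is a difference of log2 intensity with its standard error (SE), and a gene is called at an adjusted p under 0.05 in limma with Benjamini-Hochberg adjustment over 24922 probe sets. Replicates are separate pools of mice of 1 strain. The p-values among strains and in pairs of strains rest on the spread between such pools, taken over all strains. Those for wild-derived against classical strains rest on the spread between strain means. The latter treat strains as independent, although some share ancestors, which the fit does not take into account. The mean over 11 neutrophil markers lay between 13.26 and 13.40 in every strain, and all 11 reached 7 or more. The 8 measured markers of T and NK cells, the 7 of B cells and the 6 of plasmacytoid dendritic cells had list means no higher than 6.48, 6.40 and 6.69, and those of granulocyte progenitors, monocytes and macrophages, and megakaryocytes reached 7.20, 7.26 and 7.86. Single markers lay above their list mean, among them Cd3d of T cells with a median of 9.52 and up to 10.23, Cd3g up to 8.41, Nkg7 up to 8.21 and Csf1r of monocytes up to 10.76. In sorted bulk RNA, fewer cells of a type and less RNA per cell cannot be told apart. Probes follow the C57BL/6J sequence, and a lower transcript level and a variant under a probe cannot be told apart in other strains.

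The core of the interferon-stimulated response element, GAAANNGAAA, was searched on both strands of the RefSeq windows of GRCm38.p6, from 250 bases before to 50 after a gene's start. The shorter element TTCNNNGAA, found in targets of interferon gamma, was searched in the same windows. A promoter window was given for 26 of the 35 measured members, and 9 of the 26 (34.6%) held the first core, against 3.99% of all 27025 genes with a window. The 9 were Cxcl10, Ddx60, Eif2ak2, Ifih1, Ifit1, Ifit3, Ifitm3, Rsad2 and Stat2. The second element was found for 6 of the 26 (23.1%) and for 9.55% of all genes. Shown 5′ to 3′ along each gene, with the core in capitals, are the 4 promoters of the members with the largest spread among those with a core: Ifit3 at chr19:34583279-34583578 (plus strand), Eif2ak2 at chr17:78882523-78882822 (minus strand), Rsad2 at chr12:26456403-26456702 (minus strand) and Ifit1 at chr19:34640639-34640938 (plus strand).
Ifit3: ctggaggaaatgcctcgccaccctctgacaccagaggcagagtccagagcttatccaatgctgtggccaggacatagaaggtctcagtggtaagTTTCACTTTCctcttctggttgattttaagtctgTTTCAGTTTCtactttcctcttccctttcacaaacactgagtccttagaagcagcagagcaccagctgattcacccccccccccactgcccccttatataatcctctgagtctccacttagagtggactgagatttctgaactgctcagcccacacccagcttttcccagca
Eif2ak2: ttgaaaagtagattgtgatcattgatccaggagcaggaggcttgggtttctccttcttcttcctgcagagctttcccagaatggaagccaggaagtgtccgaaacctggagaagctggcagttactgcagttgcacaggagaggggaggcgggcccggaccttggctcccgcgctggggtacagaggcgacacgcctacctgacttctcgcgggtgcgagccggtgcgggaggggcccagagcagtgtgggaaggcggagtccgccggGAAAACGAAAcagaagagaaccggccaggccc
Rsad2: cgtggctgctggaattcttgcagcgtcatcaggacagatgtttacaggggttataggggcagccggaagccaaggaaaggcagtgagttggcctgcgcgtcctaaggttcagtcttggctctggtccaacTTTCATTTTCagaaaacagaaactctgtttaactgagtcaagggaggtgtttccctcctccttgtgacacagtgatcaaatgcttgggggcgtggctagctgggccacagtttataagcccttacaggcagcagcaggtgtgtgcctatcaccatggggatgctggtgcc
Ifit1: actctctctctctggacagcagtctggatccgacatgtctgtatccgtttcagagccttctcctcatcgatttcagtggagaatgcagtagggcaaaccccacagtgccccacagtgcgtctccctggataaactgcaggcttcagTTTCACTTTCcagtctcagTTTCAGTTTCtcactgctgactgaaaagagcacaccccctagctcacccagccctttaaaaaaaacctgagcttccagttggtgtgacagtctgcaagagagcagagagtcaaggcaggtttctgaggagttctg
Ifit3 and Ifit1 each hold 2 cores before the start, at 156 and 122 bases before it in Ifit3 and at 104 and 85 in Ifit1. Rsad2 has 1, at 120 bases before the start, and Eif2ak2 has 1 that lies after its start. These are matches of letters in the reference strain and show neither binding nor use.

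The interferon-stimulated genes differed widely among strains that had received no stimulus. Rtp4, Ifit3, Rsad2 and Eif2ak2 each spanned more than 8-fold between the lowest and the highest strain. MSM/Ms had the lowest strain mean in 9 of the 35 genes, and C3H/HeJ had the highest in 5. In limma's moderated F test over strains 34 of 35 members were called (97.1%), against 56.0% of all probe sets. Members that were called and whose strain means also spanned 2-fold or more numbered 26 of 35 (74.3%), against 24.5%. The shares were larger in probe sets of higher signal: where the mean reached 7, 84.9% of all probe sets were called and 42.5% also spanned 2-fold, and of the 31 members at that signal 31 and 25 did. The SD of strain means had a median of 0.33 over the members, 0.14 over all probe sets and 0.20 over those whose mean reached 7. The range reached 4-fold in 12 members and 8-fold in 6, and it stayed under 2-fold in 9. Members with a core in the promoter window had a median SD of 0.42, and those with a window and no core 0.29.

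**Figure D1:**
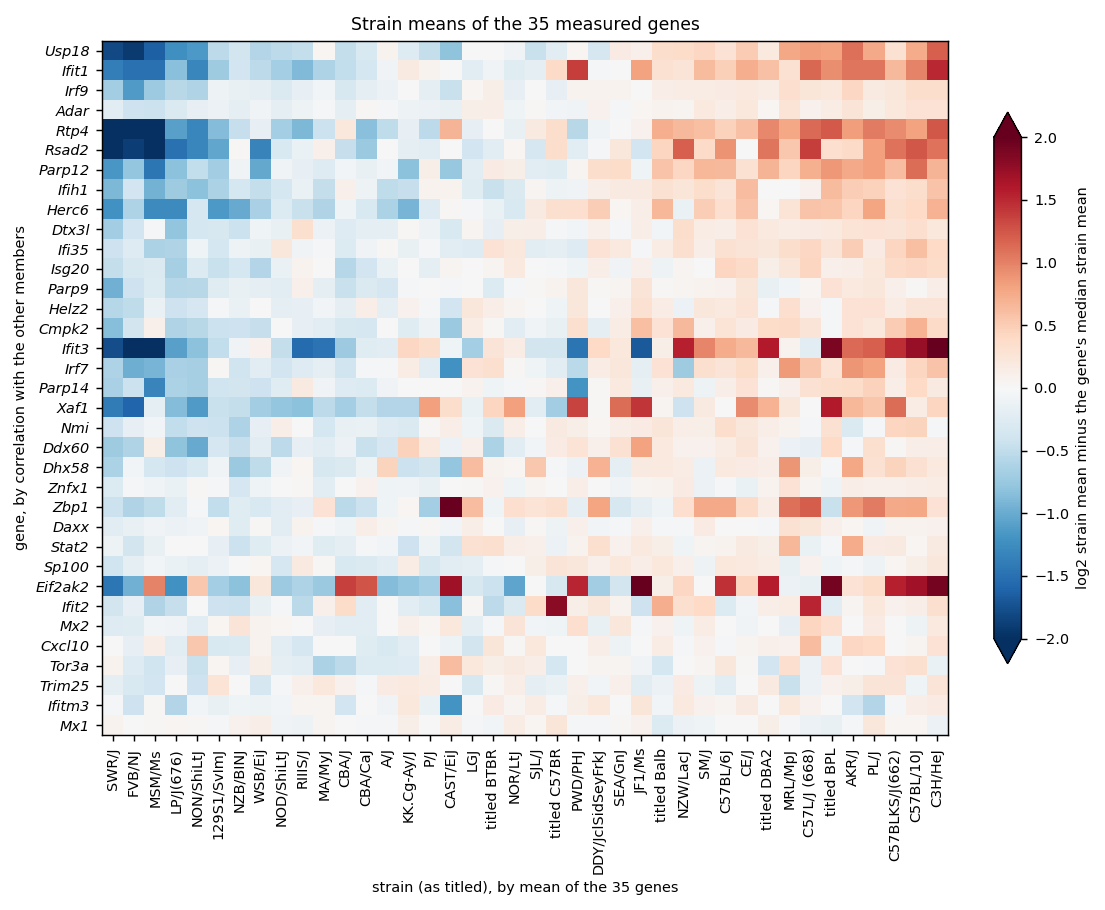
Strain means of the 35 measured genes as colours, each as log2 difference from the gene's own median over 40 strains, with strains ordered by the mean of all 35 and genes by their correlation with the other members. Blue fills the left side for most genes in the upper part, and Eif2ak2, Zbp1 and Ifit2 have strong cells that do not follow the order of strains.

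The Ifit proteins, RNA-binding proteins that block translation of foreign RNA, were all called. Ifit3 ran from 5.40 ± 0.12 (SD, n = 2) in MSM/Ms to 9.79 ± 0.04 (SD, n = 2) in C3H/HeJ, a 21.0-fold range (limma adjusted p = 4.88e-17). Ifit1 ran from 6.25 ± 0.25 (SD, n = 2) to 9.24 ± 0.31 (SD, n = 2) in the same strains, a 7.94-fold range. Ifit2 differed in layout. Its strain means lay between 5.97 and 7.52 in 38 strains, while titled C57BR had 8.61 and 8.59 and C57L/J (668) had 8.63 and 8.01. These 4 arrays lay above the highest of the other 77, which stood at 7.80. Ifit3 in the same arrays was 7.85 and 6.88 in titled C57BR and 7.80 and 7.23 in C57L/J (668), near its median strain mean of 7.73. Ifit2 and Ifit3 are direct neighbours in the reference gene order and their strain means correlated at r = 0.21, while Ifit3 and Ifit1, with 3 genes between them, correlated at r = 0.69 (40 strain means, description). Ifit3 and Ifit1 parted in 2 wild-derived strains: JF1/Ms arrays had 8.54 and 8.53 for Ifit1 but 5.68 and 6.43 for Ifit3, and PWD/PHJ arrays 9.30 and 8.93 but 6.48 and 6.07. In those strains Ifit1 lay above and Ifit3 below its median over strains.

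The transcription factors Irf9 and Stat2, the DNA-binding and activating parts of that complex, and Irf7, which amplifies interferon production, were called with a 2-fold range. All 3 had their highest strain mean in AKR/J. Irf9 was 10.61 and 10.68 there and 9.09 in the single FVB/NJ array, a 2.93-fold range. Stat2 was 9.59 and 9.61 in AKR/J and 9.49 and 9.57 in MRL/MpJ, and no array of the other 38 strains exceeded 9.23. Irf7 ran from 8.07 and 8.18 in CAST/EiJ to 10.16 and 10.28 in AKR/J, a 4.27-fold range (limma adjusted p = 1.4e-12).

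Of the ISG15 system, Isg15 itself, the ubiquitin-like modifier, was not analysed here. Usp18, which removes ISG15 from proteins, ran from 6.90 in FVB/NJ (n = 1) to 10.00 ± 0.07 (SD, n = 2) in C3H/HeJ, an 8.59-fold range (limma adjusted p = 1.05e-14). FVB/NJ, SWR/J and MSM/Ms stood together below the other strains, with 4 arrays up to 7.29 against 7.53 for the lowest of the other 77. Herc6, the ligase that attaches ISG15 in mice, ran from 6.49 ± 0.08 (SD, n = 2) in LP/J(676) to 8.55 ± 0.37 (SD, n = 2) in PL/J. Trim25, a ubiquitin ligase of the RIG-I pathway, was called but spanned 1.64-fold.

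Of the antiviral effectors 8 of 9 were called, 5 with a 2-fold range. Rsad2, or viperin, which makes a chain-terminating nucleotide, ran from 7.36 and 6.44 in MSM/Ms to 10.92 and 10.14 in C57L/J (668), a 12.4-fold range (limma adjusted p = 3.18e-18). Its neighbour Cmpk2, a nucleotide kinase that supplies the same pathway, spanned 2.91-fold, and the strain means of the pair correlated at r = 0.69. Ifitm3, a membrane protein that hinders virus entry, was 11.81 and 11.60 in CAST/EiJ, below the lowest of the other 79 arrays at 12.19. Ddx60, a helicase, was highest in JF1/Ms at 10.82 and 10.99, and no other array exceeded 10.76. Isg20, an exonuclease, was highest in C57BL/6J at 9.85 ± 0.22 (SD, n = 5) and lowest in LP/J(676) at 8.76 ± 0.12 (SD, n = 2). Helz2 and Znfx1, both helicase-like proteins, were called with ranges of 1.87-fold and 1.55-fold, each highest in MRL/MpJ.

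Mx1 and Mx2, dynamin-like proteins that trap viral particles, stayed under 7 in every strain. Mx1 spanned 4.28 to 4.80 (limma adjusted p = 0.0418) and Mx2 4.64 to 5.33 (limma adjusted p = 0.0995). The reference annotation lists both as transcribed pseudogenes, and many laboratory strains are known to carry broken Mx1 alleles. Mean Mx1 was 4.63 ± 0.07 (SD) over the 5 wild-derived and 4.56 ± 0.10 (SD) over the 35 classical strains, a difference that was not called.

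All 5 nucleic acid sensors were called. Eif2ak2, or PKR, the kinase that halts translation on double-stranded RNA, had a step in the middle of its order of strains. In 28 strains its mean lay between 5.39 in SWR/J (n = 1) and 7.38, and in 12 strains between 7.84 in MSM/Ms and 8.89 ± 0.16 (SD, n = 2) in JF1/Ms. The 12 were MSM/Ms, CBA/CaJ, CBA/J, C57BL/6J, PWD/PHJ, C57BLKS/J(662), titled DBA2, C57BL/10J, CAST/EiJ, titled BPL, C3H/HeJ and JF1/Ms. Single arrays of both sides met, since the MSM/Ms arrays were 8.28 and 7.39 and the highest array on the low side was 7.41. Of the 5 wild-derived strains 4 were on the high side. C57L/J (668) was on the low side with 6.70 and 6.68 although the mean of all members was among the higher ones there, at 8.97.

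Zbp1, a sensor of Z-form nucleic acid that can start cell death, was 9.90 and 9.74 in CAST/EiJ. The highest of the other 79 arrays stood at 9.26, and the other wild-derived strains lay between 7.32 and 7.66. Dhx58, or LGP2, a regulator of RNA sensing, ran from 8.11 in CAST/EiJ to 9.77 in MRL/MpJ, a 3.15-fold range. Ifih1, or MDA5, the sensor of long double-stranded RNA, spanned 2.97-fold from MSM/Ms to titled BPL. Adar, which edits double-stranded RNA, spanned 1.65-fold, from 8.71 in MSM/Ms to 9.43 in C3H/HeJ.

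**Figure D2:**
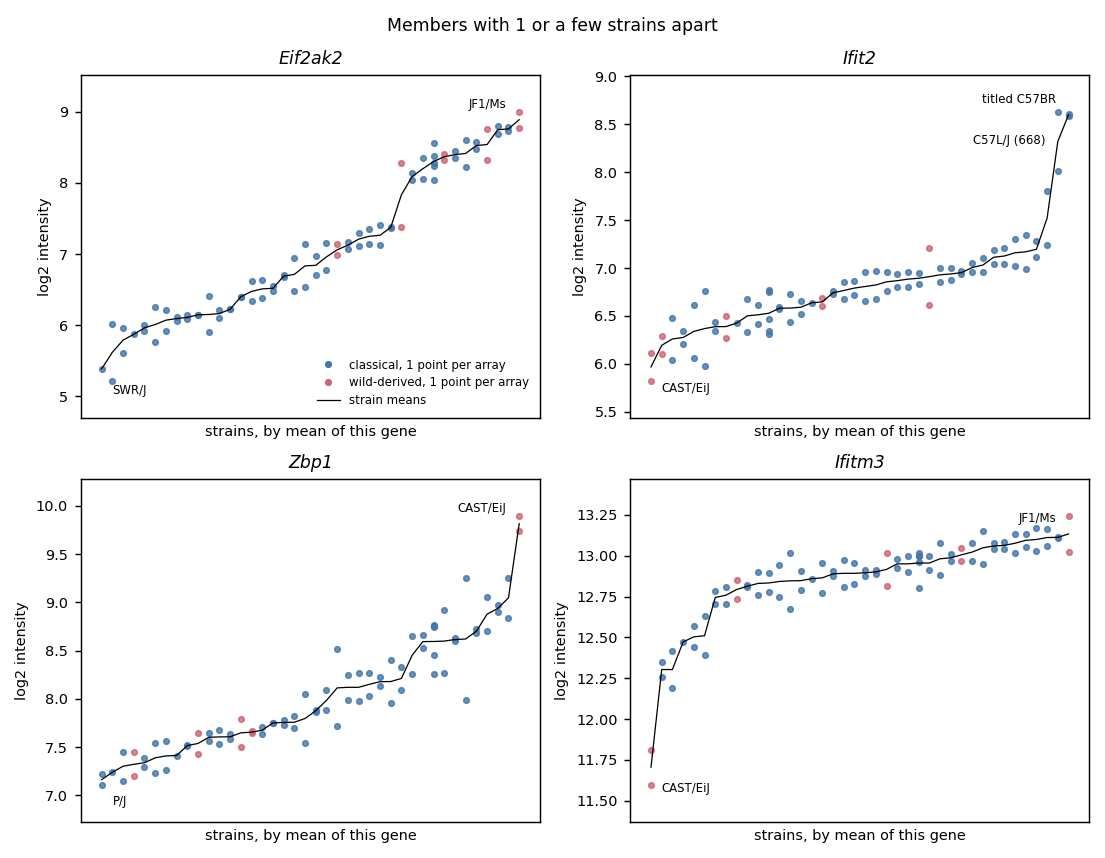
Log2 intensity of Eif2ak2, Ifit2, Zbp1 and Ifitm3 in every array (points, wild-derived strains in red) with strains ordered by their mean for each gene (line). Eif2ak2 shows 12 strains above a step, Ifit2 2 strains at the top, and Zbp1 and Ifitm3 the strain CAST/EiJ alone at the top and at the bottom.

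The ADP-ribosyltransferases and their partner Dtx3l were all called with a 2-fold range. Parp12, a mono-ADP-ribosyltransferase that acts against RNA viruses, ran from 7.24 and 6.74 in MSM/Ms to 9.56 ± 0.28 (SD, n = 2) in C57BL/10J, a 5.97-fold range. Parp14 was 7.72 ± 0.56 (SD, n = 2) in MSM/Ms and 7.84 ± 0.22 (SD, n = 2) in PWD/PHJ, and these 4 arrays lay below the other 77, which started at 8.33. Dtx3l, a ubiquitin ligase, and Parp9, which works in a complex with it, are direct neighbours and correlated at r = 0.83 over strain means. Parp9 was lowest in SWR/J at 7.83 (n = 1) and Dtx3l in LP/J(676) at 8.80 ± 0.13 (SD, n = 2).

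The nuclear body proteins Sp100 and Daxx, which silence incoming viral genomes, were called with ranges of 1.58-fold and 1.46-fold. Cxcl10, a chemokine that attracts T cells, was called, and ran from 6.46 in LGJ to 7.45 in C57L/J (668). Among the other inducible genes Rtp4, a chaperone of taste and opioid receptors that is strongly interferon-inducible, had the widest range of all members, 24.2-fold. It was 7.26 and 5.95 in MSM/Ms, 7.28 in FVB/NJ and 7.65 in SWR/J, and no array of the other 37 strains was under 8.16. In C3H/HeJ it reached 11.36 and 11.06. Xaf1, a pro-apoptotic zinc-finger protein, ran from 6.38 in FVB/NJ (n = 1) to 9.57 ± 0.16 (SD, n = 2) in titled BPL, a 9.08-fold range. Ifi35 and Nmi, partner proteins that are released by damaged cells, spanned 2.36-fold and 2.08-fold. Tor3a, a protein of the endoplasmic reticulum, was highest in CAST/EiJ at 8.04 ± 0.08 (SD, n = 2).

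The mean of the 35 members ordered the strains from SWR/J at 7.90 (n = 1) to C3H/HeJ at 9.11 ± 0.03 (SD, n = 2), a 2.32-fold range. Next to SWR/J came FVB/NJ at 7.96 (n = 1), MSM/Ms with arrays at 7.87 and 8.20, and LP/J(676) with 8.01 and 8.10. At the other end stood C57BL/10J with 9.04 and 9.10, C57BLKS/J(662) with 9.01 and 9.03, and PL/J with 8.99 and 9.03, and the highest array of the 4 lowest strains, at 8.20, lay below the lowest of these, at 8.99. The SD over strain means was 0.32, and the SD between arrays of a strain was 0.12. No step between neighbours in the order exceeded 0.15. Of the 37 neighbouring pairs with replicate arrays on both sides, 34 had overlapping arrays, and in 3 the arrays did not overlap, CAST/EiJ below LGJ, SEA/GnJ below JF1/Ms and C57BLKS/J(662) below C57BL/10J, with steps of 0.04 to 0.06 and no test run. The 5 C57BL/6J arrays ran from 8.68 to 9.06. In the 4 lowest strains 2, 0, 6 and 1 of the 35 genes lay above their median over strains, and in the 4 highest, from C3H/HeJ down, 32, 33, 33 and 30 did. These strains were picked by the mean of the same genes. The counts, and the gap between the arrays of both ends, follow in part from that choice. The lowest and the second lowest strain rest on 1 array each. Over strains, the correlation of this mean with the array median was r = -0.34, so strains with a higher mean tended to have dimmer arrays. The part of array level in the order of strains was not tested.

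**Figure D3:**
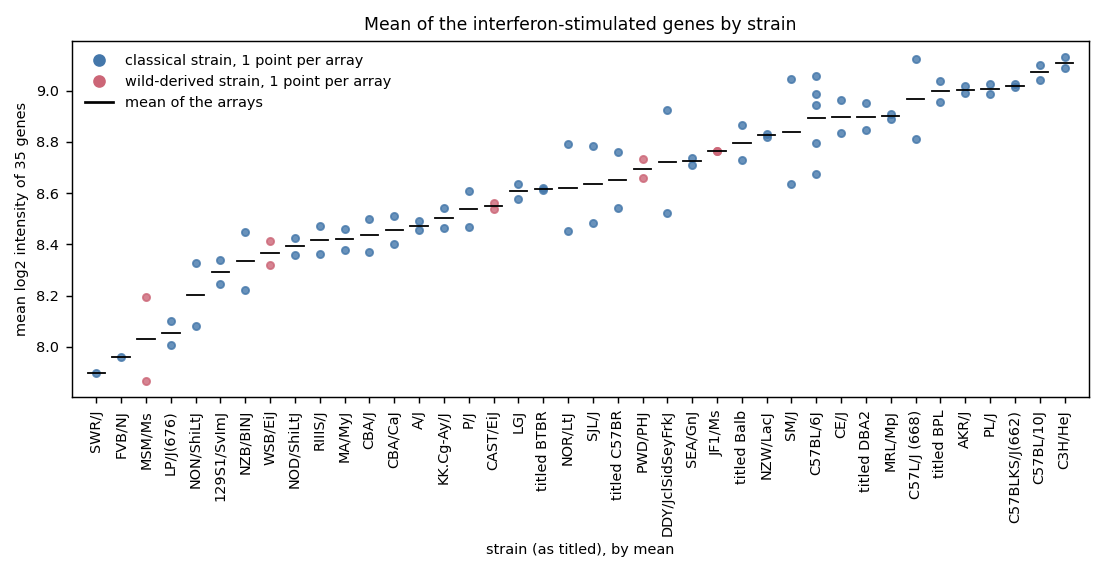
Mean log2 intensity of the 35 genes per array (points, wild-derived strains in red) and per strain (bars), with strains ordered by their mean. The strain means climb in small steps from 7.90 in SWR/J to 9.11 in C3H/HeJ, and the wild-derived strains are spread along the order.

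The members varied together to unequal degrees. Over 595 pairs of members the correlation of strain means had a median of 0.44, with 545 above 0 and 248 at 0.5 or more. Without FVB/NJ and SWR/J the median was 0.39. The points are 40 strain means that share arrays between genes and ancestry between strains, so the values are descriptions. Irf9 and Usp18 were the most alike pair at r = 0.95. Against the mean of the other members Usp18 stood at 0.93, Irf9 and Ifit1 at 0.91, Adar at 0.90, Rtp4 at 0.89, and Rsad2 and Parp12 at 0.88. Adar joined these with an SD over strains of 0.18, while Eif2ak2 with an SD of 1.03 had r = 0.46. The least alike were Mx1 at -0.20, Ifitm3 at 0.24, Trim25 at 0.29 and Tor3a at 0.36. In all, 13 members reached 0.8 and 27 reached 0.5.

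**Figure D4:**
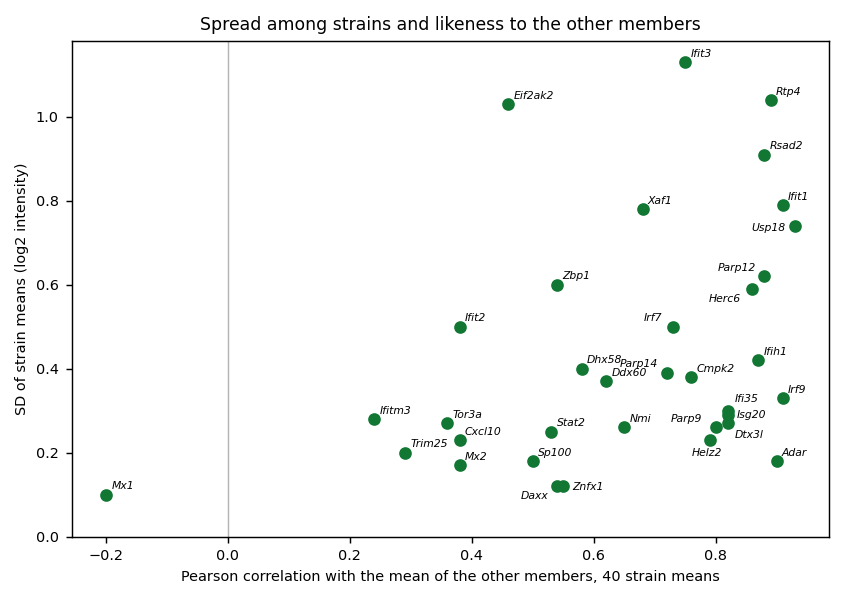
For each of the 35 genes, the Pearson correlation with the mean of the other members over 40 strain means (horizontal) and the SD of strain means in log2 intensity (vertical). Usp18, Ifit1, Rtp4 and Rsad2 combine a high correlation with a wide spread, Adar and Irf9 a high correlation with a narrower one, and Eif2ak2 a wide spread with r = 0.46.

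Other genes of the interferon pathway were read from lists set by their function. Of 10 measured interferon ligands 0 were called in limma's F test, against 56.0% of all probe sets, and 2 had an unadjusted p under 0.05. Of the 10, 7 stayed under 7 in every strain, and Ifnb1 ran from 5.25 to 5.79. The share called among probe sets of such low signal was not counted. All 6 receptor genes were called, with Ifnar2 from 10.90 in NZB/BINJ to 12.14 in titled DBA2 as the widest. Of 9 signalling genes 8 were called and of 10 genes of interferon induction 10. All receptor and signalling genes and 9 of the induction genes reached 7 in their highest strain. Of all probe sets whose mean reached 7, 84.9% were called, so the counts of receptor, signalling and induction genes are near that share. Irf5, an activator of cytokine genes, ran from 6.94 in PWD/PHJ to 8.90 in LGJ. Sting1, the adaptor of cytosolic DNA sensing, ran from 6.47 in NOD/ShiLtJ to 7.94 in DDY/JclSidSeyFrkJ. The list means correlated with the mean of the members at r = 0.82 for the Oas family, 0.63 for targets of interferon gamma, 0.40 for negative regulators, 0.34 for induction, 0.33 for signalling, 0.19 for receptors and -0.34 for ligands. The genes within a list were unequal. Of the 7 targets of interferon gamma 5 stayed under 7 in every strain. Irgm1 had r = 0.78, and the others lay between -0.45 and 0.38. Of the Oas genes, Oasl2 had the widest spread and r = 0.34, and the others lay between 0.42 and 0.89. Among the 8473 called genes reaching 7 that are no members the median correlation was 0.06, and 2 reached 0.8, Oas1b at 0.89 and Slfn5 at 0.85. After them came Oas1a and Rnf213 at 0.80, Oas2 at 0.79, Oas3, Irgm1, Parp10 and Trafd1 at 0.78, and Gm12250 at 0.77. At the other end stood 1700049L16Rik at -0.59, 1700030C10Rik at -0.56, St8sia1 at -0.55, and Usf2 and Gm1673 at -0.54.

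Marker lists of cells were set beside the members. The correlation of the list mean with the mean of the members was 0.08 for neutrophils, 0.01 for the cell cycle, 0.06 for granulocyte progenitors and 0.26 for monocytes and macrophages. It was -0.28 for plasmacytoid dendritic cells, the main makers of type I interferon, -0.19 for B cells, -0.24 for T and NK cells and -0.32 for megakaryocytes. Of the 6 measured markers of plasmacytoid dendritic cells, Ccr9 ran from 4.99 to 7.57 in RIIIS/J and Tcf4 from 6.49 to 7.99 in MRL/MpJ, both called with a 2-fold range, and Siglech from 6.07 to 6.55. The part of these cells in the members' values was not tested further.

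The next question was whether strains of recent wild origin differ from classical strains. Of the members 3 were lower in them and 0 higher. Irf7 (by -0.65, SE 0.21, adjusted p = 0.0358), Parp14 (-0.60, SE 0.16, adjusted p = 0.00926) and Parp12 (-0.77, SE 0.26, adjusted p = 0.0481) were lower in the 5 wild-derived strains in limma on strain means. The 3 of 35 members called lower (8.57%) stand beside 5.55% of all probe sets, and the 0 called higher beside 6.64%, so the counts are near the background. Unadjusted p-values under 0.05 were found for 8 members. The share of all probe sets under that limit was not counted, here or in the pairs below. Nor was the share of all probe sets with a difference above or below 0. The median difference over the members was -0.13, and over all probe sets 0.03. Ifit3 had a difference of -1.21 (SE 0.49, adjusted p = 0.105) and Eif2ak2 of 1.25 (SE 0.44, adjusted p = 0.0555), and neither was called. The mean of the members was 8.48 ± 0.29 (SD) over the 5 wild-derived strains, against 8.63 ± 0.32 (SD) over the others. The call of Parp12 was lost under 26 of 94 alternatives, among them quantile normalization, a common array median, the trended and robust prior and single arrays of either origin left out, with adjusted p-values in limma from 0.0184 to 0.245 over the alternatives. Irf7 was no longer called without CAST/EiJ, MSM/Ms or PWD/PHJ, without JF1/Ms replicate 2 or with conflicting labels left out, and Parp14 without MSM/Ms or PWD/PHJ. Without MSM/Ms 0 members were called lower, without CAST/EiJ or without PWD/PHJ 1 was, and with the 5 groups of conflicting labels left out 1 was.

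MSM/Ms and JF1/Ms, inbred from Japanese mice of molossinus origin, differed in 13 of 35 members, all lower in MSM/Ms. Of all probe sets 1.67% were lower and 1.45% higher in this contrast. Rtp4 differed most, at 7.26 and 5.95 in MSM/Ms against 9.80 and 10.28 in JF1/Ms, a difference of -3.43 (SE 0.30, 10.8-fold, limma adjusted p = 1.09e-12). Ifit1 was 6.42 and 6.08 against 8.54 and 8.53, a difference of -2.29 (SE 0.29, limma adjusted p = 1.11e-07). Usp18 was 7.29 and 7.05 against 9.07 and 8.76, and Rsad2 7.36 and 6.44 against 8.73 and 8.78. The arrays of the strains did not overlap in any of these 4 genes, which follows in part from their choice among the called genes with large differences. The share of all probe sets without overlap was not counted. Also called were Xaf1 (-1.61), Herc6 (-1.40), Parp12 (-1.37), Parp14 (-1.17), Ifih1 (-1.13), Eif2ak2 (-1.05), Irf7 (-0.75), Irf9 (-0.73) and Parp9 (-0.52). Ifit3, at 5.31 and 5.48 in MSM/Ms and 5.68 and 6.43 in JF1/Ms, had a difference of -0.65 (SE 0.36, limma adjusted p = 0.487). Over the members 34 of 35 differences were below 0, with a median of -0.50 against -0.00 over all probe sets, and 23 members had an unadjusted p under 0.05 in limma. Of the Oas genes, Oas1a, Oas2, Oas3 and Oasl1 were lower as well, Oas3 by -2.95 (SE 0.19). Of 6 receptor genes 0 were called, and of 9 signalling genes Jak1 was (-0.39, SE 0.09). Without MSM/Ms replicate 2, 9 members were called, all lower, and Irf7, Irf9, Parp9 and Eif2ak2 were no longer called, Irf9 with an adjusted p of 0.135 in limma. Irf7 and Parp9 were also lost without JF1/Ms replicate 1, and Eif2ak2 with arrays grouped by background label.

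C3H/HeJ and CBA/J, which share ancestors, differed in 12 of 35 members, all higher in C3H/HeJ. Of all probe sets 0.714% were higher and 0.425% lower. Ifit3 was 9.82 and 9.76 in C3H/HeJ and 6.93 and 7.06 in CBA/J, a difference of 2.79 (SE 0.36, 6.92-fold, limma adjusted p = 2.67e-07). Ifit1 was 9.02 and 9.46 against 7.18 and 7.32, a difference of 1.99 (SE 0.29, limma adjusted p = 6.07e-06). Usp18 was 9.95 and 10.06 against 8.15 and 8.52, and Rsad2 10.02 and 10.45 against 8.59 and 8.78. In none of these 4 genes did the arrays of the strains overlap, which again follows in part from their choice among the called genes. A count over all probe sets was not made. The other called members were Xaf1 (1.10), Irf7 (0.96), Isg20 (0.94), Cmpk2 (0.71), Irf9 (0.68), Parp9 (0.58), Ifitm3 (0.56) and Sp100 (0.53). Rtp4 had 11.36 and 11.06 against 10.09 and 10.25, a difference of 1.03 (SE 0.30, limma adjusted p = 0.0782). Ifit2 had a difference of -0.04 (SE 0.20, limma adjusted p = 0.989) and was not called. Over the members 33 of 35 differences were above 0, with a median of 0.53 against -0.01 over all probe sets, and limma gave 27 members an unadjusted p under 0.05. The receptor subunits moved in opposite directions, Ifnar1 by -0.62 (SE 0.12) and Ifnar2 by 0.59 (SE 0.10), and 6 of 7 Oas genes were higher. Without CBA/J replicate 1 the count was 6, and Irf7, Irf9, Xaf1, Parp9, Cmpk2 and Ifitm3 were no longer called. All of these but Ifitm3 were also lost without at least 1 other array of the pair.

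In NZB/BINJ against NZW/LacJ 19 of 35 members (54.3%) were lower in NZB/BINJ, an autoimmune-prone strain. This contrast is broad, with 21.3% of all probe sets lower and 24.1% higher, and an NZB/BINJ array stood apart. Its replicate 1 had a median correlation with the other arrays of 0.962, where the other 80 lay at 0.972 or above. Ifit3 was 8.02 and 7.31 in NZB/BINJ and 9.19 and 9.36 in NZW/LacJ, a difference of -1.61 (SE 0.36, limma adjusted p = 0.000504). Cmpk2 was 9.38 and 9.85 against 10.73 and 10.62, a difference of -1.06 (SE 0.16, limma adjusted p = 1.04e-06). Eif2ak2 was 5.76 and 6.26 against 7.36 and 7.15, a difference of -1.24 (SE 0.21, limma adjusted p = 1.39e-05). These 3 genes were called under every alternative tried. Their arrays did not overlap between the strains, which follows in part from their choice among the called genes, and no count over all probe sets was made. The others called were Rsad2, Rtp4, Dhx58, Herc6, Dtx3l, Nmi, Ifit2, Usp18, Ifih1, Zbp1, Parp14, Ddx60, Znfx1, Isg20, Stat2 and Ifitm3. Of these, Dhx58 and Dtx3l were called under every alternative, and each of the others was lost under at least 1. Irf7 was not called, at 8.89 and 8.98 against 8.62 and 8.64, a difference of 0.30 (SE 0.21, limma adjusted p = 0.225). Without NZB/BINJ replicate 1 the count was 8, against 10.4% of all probe sets lower, and without NZW/LacJ replicate 1 it was 11. After quantile normalization 9 members were lower and 2 higher, with 14.6% and 16.4% of all probe sets. Differences above 0 then numbered 12 of 35, against 3 as deposited, and Stat2 was among the members that changed sign. The median difference over the members was -0.18, against -0.48 as deposited. The median of all probe sets was shifted by 0.10 as deposited and by 0.04 after quantile normalization. With a common array median 25 members were lower and 0 higher, beside 26.9% and 11.8% of all probe sets. In this pair all 7 Oas genes were lower in NZB/BINJ. Lower as well were 3 of 6 receptor, 3 of 9 signalling and 6 of 10 induction genes, with 0 higher. Of 10 ligands Ifna5 alone was called, higher by 0.59 (SE 0.16). Of 7 negative regulators 3 were lower and 1 higher, and of 7 targets of interferon gamma 2 were higher. Among cell cycle genes 6 of 9 were lower. Of the cell markers, 5 of 7 for B cells were higher, 4 of 9 for monocytes and macrophages were higher and 1 lower (Adgre1), and of 8 for T and NK cells 3 were higher and 2 lower, Cd3d by -2.61 and Cd3g by -1.78. Of 6 for plasmacytoid dendritic cells 2 were higher and 1 lower, and the part of any of these in the members' difference was not tested.

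**Figure D5:**
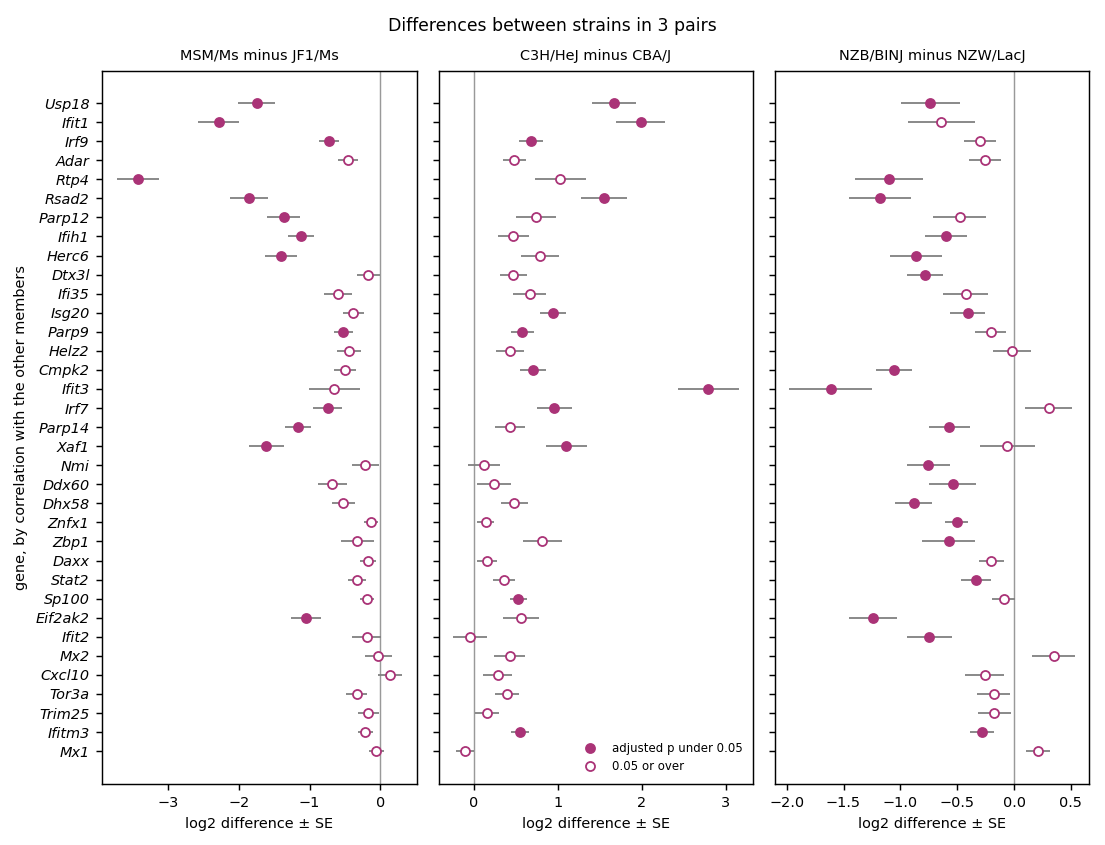
Differences of log2 intensity (points) with SE (bars) for the 35 genes in 3 pairs of strains, with filled points for an adjusted p under 0.05. In MSM/Ms against JF1/Ms the filled points lie between -3.43 and -0.52, in C3H/HeJ against CBA/J between 0.53 and 2.79, and in NZB/BINJ against NZW/LacJ between -1.61 and -0.28.

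The last pairs held few called members. In MRL/MpJ against LGJ, the main ancestor of the autoimmune-prone MRL line, Rsad2 alone was higher (9.72 and 9.66 against 8.88 and 8.65, 0.93, SE 0.27, limma adjusted p = 0.0369) and 0 were lower, beside 2.82% and 1.03% of all probe sets. Of the differences 31 of 35 were above 0, with a median of 0.25 against 0.03 over all probe sets, and 12 members had an unadjusted p under 0.05 in limma. With a common array median 28 differences were above 0, with a median of 0.18 against -0.04 over all probe sets. Rsad2 was not called after a shift of all arrays to a common median, with arrays grouped by background label, or without any 1 array of either strain. In NOD/ShiLtJ, which develops autoimmune diabetes, against the related and resistant NOR/LtJ, Xaf1 alone was lower and 0 were higher, beside 2.50% and 3.05%. Xaf1 was 7.23 and 7.19 in NOD/ShiLtJ and 8.56 and 9.02 in NOR/LtJ, a difference of -1.58 (SE 0.24, limma adjusted p = 7.29e-06), and it was called under every alternative tried. Of the differences 28 of 35 were below 0, with a median of -0.22 against -0.09 over all probe sets, and 6 members had an unadjusted p under 0.05 in limma. In both pairs all 9 measured cell cycle genes were higher in the first strain, and their part in the members' values was not tested.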

How the data were processed

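The authors deposited 1 linear intensity per probe set and array, made with Affymetrix Power Tools and RMA per the submitters' processing notes, which give no versions. For the genome build and probe set annotation, nothing is given in the sources used here. The intensity values were converted to log2 and not scaled further. They covered 24922 probe sets on 81 arrays, with array medians of 97.2 to 114.8 intensity units. The number of arrays limits the precision.

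Gene names came from the platform's table, for probe sets of 1 symbol. Tests used limma 3.58.1 in R 4.3.3 (lmFit and eBayes) with 1 mean per title group, 41 residual and 7.93 prior degrees of freedom, and Benjamini-Hochberg adjustment over all probe sets. The spread of strains with 1 array is assumed equal to the rest. The origin of strains, a matter of common knowledge, was tested on strain means. Every member was named. Other genes named were the 10 most and 5 least correlated with the mean of the members among called genes reaching 7, and from each list up to 4 of widest range; Ifnb1, Siglech, Ifnar1 and list genes of the pairs were named after their values were seen. Promoters printed were those of the 4 widest-ranging members with a core. Names and gene order came from GRCm38.p6. The members and lists were chosen with earlier results of these data known. The fits were tested on simulated data. Alternatives covered normalization, scaling, the variance prior, dim probe sets, label conflicts, a replicate block and each array left out. Over 595 pairs of groups, deviations of same-numbered arrays had a median correlation of 0.02, with single values from -0.57 to 0.70. The reported fits did not pair samples by these numbers, and whether same-numbered arrays share a batch was not tested.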

Additional observations from a re-analysis of the deposited data

Results flagged for a closer look

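Among 72 sets of 4 to 10 values examined for a lone extreme value, 3 held one, and chance gives about 1 in 20 sets. Zbp1 in CAST/EiJ, at 9.82, lay above the other 4 wild-derived strain means, which ran from 7.32 to 7.66. Ifitm3 in CAST/EiJ, at 11.70, lay below the other 4, which ran from 12.79 to 13.13. Ifitm3 in C57BL/6J replicate 1, at 12.80, lay below the other 4 arrays of that strain, which ran from 12.96 to 13.02.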

How the results depend on the processing

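With 1 array left out in turn, members called among strains ran from 33 to 35 and with a 2-fold range from 25 to 27. Members called ran from 2 to 4 lower and from 0 to 1 higher in wild-derived strains, from 9 to 18 in MSM/Ms against JF1/Ms, from 6 to 14 in C3H/HeJ against CBA/J (6 without CBA/J replicate 1), from 8 to 20 in NZB/BINJ against NZW/LacJ, from 0 to 2 in MRL/MpJ against LGJ and from 1 to 3 in NOD/ShiLtJ against NOR/LtJ. Members called lower in wild-derived strains numbered 1 without CAST/EiJ, 0 without MSM/Ms, 1 without PWD/PHJ and 1 with conflicting labels left out. Members called higher there numbered 1 after quantile normalization, 1 with probe sets limited to a mean of 7 or more, 1 with conflicting labels left out and 1 without WSB/EiJ. NZB/BINJ against NZW/LacJ gave 11 after quantile normalization. MRL/MpJ against LGJ gave 0 with a common array median, 0 by background label and 3 with probe sets limited by mean. NOD/ShiLtJ against NOR/LtJ gave 2 after quantile normalization, 2 with a trended and robust prior and 2 with probe sets limited by mean. Of 116 values under the other alternatives 101 stayed within the limits of change. These limits let a count change. The 19 members called in NZB/BINJ against NZW/LacJ became 25 with a common array median, which was within them. With the replicate number as a block 33 members were called among strains, 26 of them with a 2-fold range, and the counts of the other comparisons were those reported. The cause of these changes was not tested. Leaving out FVB/NJ and SWR/J was chosen after seeing the data.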
